A study of Mus musculus with 2 samples.

Results

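Antigen presentation was examined as a set of 44 genes of the 19294 genes counted by mRNA-seq in mouse intestinal organoids (mIOs). The set holds every gene whose symbol starts with H2- and a capital letter, which gave 24 genes, and 20 of 21 further genes named for their part in loading and presenting peptides. The remaining one, Ciita, was not analysed here. The mIOs were grown from Lgr5-EGFP-IRES-creERT2 mice, a reporter and Cre line driven from the stem cell gene Lgr5, in a medium with EGF, Noggin and R-spondin. There was 1 control library and 1 library of mIOs given dextran sulfate sodium (DSS) for 4 days, both labelled as day 4 and both given the cell type intestinal stem cells. DSS is a sulfated polysaccharide that injures the intestinal epithelium. The DSS concentration of the sequenced culture and the number of animals are not stated. With 1 library in each group there is no replicate error, so no difference below has a replicate check and no test between the conditions was made.

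Major histocompatibility complex (MHC) class I molecules are made of a heavy chain and the light chain B2m, and carry peptides cut by the proteasome in the cytosol to the surface of nearly all cells. The peptides enter the endoplasmic reticulum (ER) through the transporter Tap1-Tap2, are trimmed there and are loaded with the help of tapasin. In mice, the classical heavy chains H2-K and H2-D present to CD8 T cells, and a larger group of nonclassical heavy chains from the Q, T and M regions serves more specialised receptors, several of them on intraepithelial lymphocytes of the gut. MHC class II molecules carry peptides from endosomes to CD4 T cells, are typical of professional antigen-presenting cells, and can be induced by IFN-γ in intestinal epithelium.

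Depth was 65493032 counts for the control and 59746968 for the DSS library. Levels are given as CPM, the counts of a gene scaled to a common library size with TMM (trimmed mean of M values) factors of 1.09 and 0.915. A difference is the log2 of DSS over control scaled counts. The interval behind it is a 95% Clopper-Pearson interval, which is exact and covers counting error only. With total counts in place of TMM, the median of all genes moved by -0.26, and every ratio moved with it. The summed CPM of 7 epithelial markers was 5953 without DSS and 8610 with it, with Krt19 at 1.15, Krt8 at 0.84, Elf3 at -0.17 and Epcam, Cdh1, Krt18 and Cldn7 between -0.03 and 0.04. The summed CPM of 5 stem cell markers (Lgr5 among them) was 832 without DSS and 130 with it, that of 5 cycling cell markers 1165 and 229, that of 5 enterocyte markers 1394 and 18400, and that of 5 goblet cell markers 703 and 11136. Of the markers of Paneth and tuft cells, 5 and 4 were counted and each had a ratio below 0. The tuft cell marker Avil was at -0.08 with an interval that included 0. In such bulk RNA, a smaller number of cells of a type and less RNA per cell cannot be told apart, and the part of this shift in the values below was not tested.

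A total of 42 members had at least 10 counts in at least 1 library, and H2-T24 and H2-Eb1 did not. Of the 42, 10 had a log2 ratio of 1 or more, a 2-fold difference, which is 23.8% of them beside 19.3% of all genes with that many counts. Of the same members, 3 were at -1 or less, which is 7.14% beside 20.2% of all genes. The 10 members were H2-Q2, H2-Bl, H2-Q1, H2-Ab1, H2-T23, H2-M2, B2m, H2-D1, H2-T3 and Cd74, and 8 of them are class I chains. The 3 at -1 or less were Nlrc5, H2-DMb1 and Rfxap. Together, 13 members (31.0%) were past either line, beside 39.5% of all genes. At the stricter line of 2, 3 members (7.14%) lay above it, beside 7.87% of all genes, and 0 lay at -2 or less, beside 6.54%. The share of members at 1 or more is close to that of all genes, and fewer members than genes at large were on the low side. The median over the 42 members was 0.45, and over all 17235 genes with that many counts it was -0.06. With total counts as the scaling, 7 members reached 1 and 6 lay at -1 or below. The median of all genes was then -0.31, and the shares of all genes past these lines were not computed at that scaling.

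**Figure D1:**
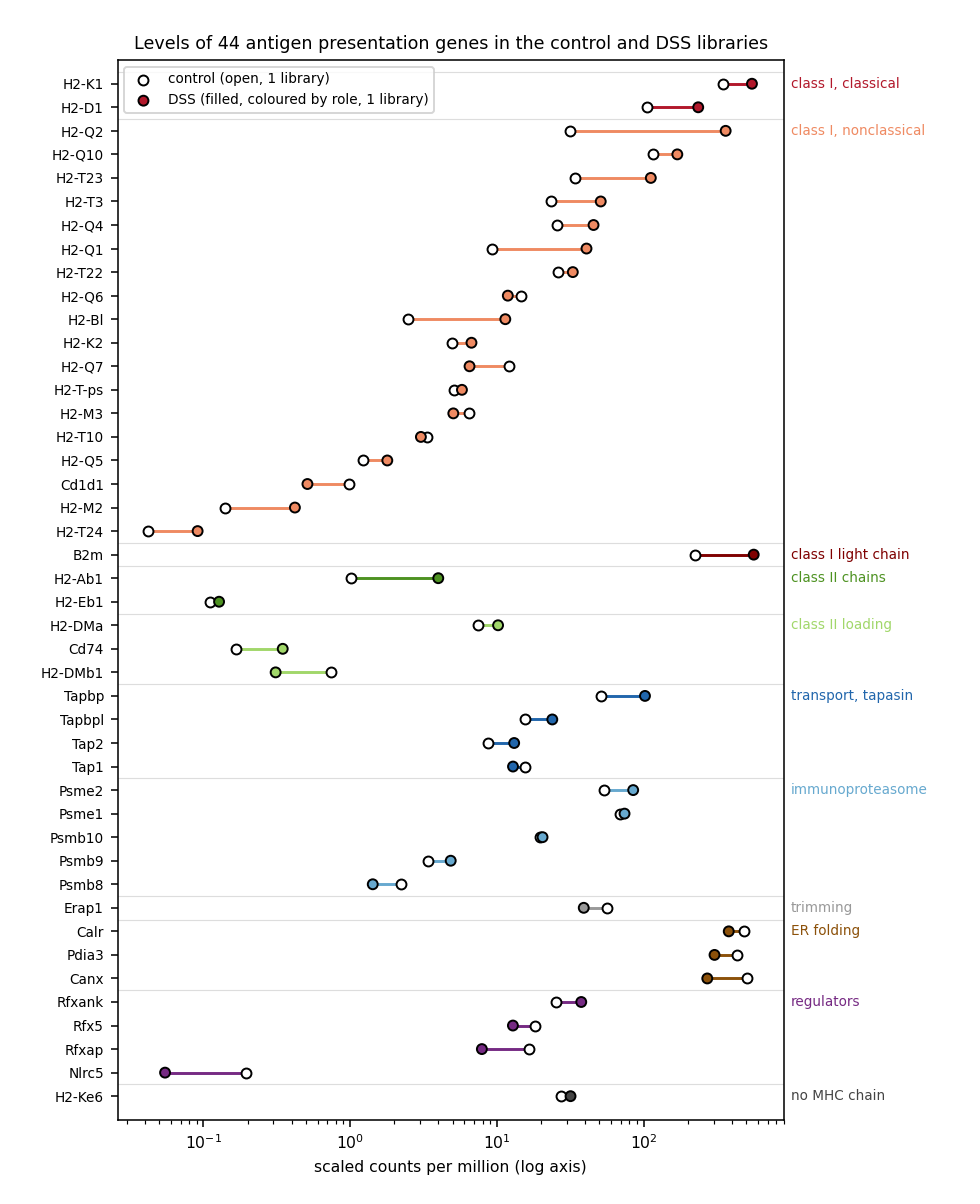
Level of each of the 44 genes in scaled CPM (log axis) in the control library (open) and the DSS library (filled), grouped by role. H2-Q2 has the longest line of the class I genes, from 31.4 to 362 CPM, while the class II chains stay below 4 CPM.

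The regulatory sequence upstream of the class I genes is shown first, because H2-D1 and H2-Q6, with similar promoter windows, differed in their ratios. Class I promoters are known for an NF-κB site, an interferon-stimulated response element (ISRE), and a module that ends in a CRE-like box and a CCAAT box, on which Nlrc5 and the RFX proteins assemble. RefSeq windows (GRCm38.p6) were found for 31 of the 44 genes, and the 250 bases before the start site are given, 5′ to 3′ on the strand of the gene. Capitals mark GGGATTCCC (the core of the NF-κB site of class I genes), GAAANNGAA and GAANNGAAA (cores of the ISRE, the second added after the windows were seen), TTCNNNGAA (the interferon-γ element GAS), TGACG (the core of the CRE-like box) and CCAAT, each searched on both strands, and none of the marked runs below overlap. The windows are those of H2-Q2 (chr17:35342057-35342306, plus strand), which had the highest ratio, the classical genes H2-D1 (chr17:35262844-35263093, plus) and H2-K1 (chr17:34000334-34000583, minus), the light chain B2m (chr2:122147437-122147686, plus), H2-Q6 (chr17:35424600-35424849, plus), which was lower in the DSS library, and Tap1 (chr17:34187306-34187555, plus).
H2-Q2: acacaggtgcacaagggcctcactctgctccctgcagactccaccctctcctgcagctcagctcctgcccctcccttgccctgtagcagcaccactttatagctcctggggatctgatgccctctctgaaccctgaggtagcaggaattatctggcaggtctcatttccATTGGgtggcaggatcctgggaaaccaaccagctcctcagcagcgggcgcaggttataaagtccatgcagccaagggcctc
H2-D1: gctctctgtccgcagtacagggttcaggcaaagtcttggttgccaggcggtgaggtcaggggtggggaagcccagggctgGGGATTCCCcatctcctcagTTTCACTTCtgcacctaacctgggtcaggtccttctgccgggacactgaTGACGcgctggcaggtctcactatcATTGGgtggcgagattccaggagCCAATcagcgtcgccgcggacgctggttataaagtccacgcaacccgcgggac
H2-K1: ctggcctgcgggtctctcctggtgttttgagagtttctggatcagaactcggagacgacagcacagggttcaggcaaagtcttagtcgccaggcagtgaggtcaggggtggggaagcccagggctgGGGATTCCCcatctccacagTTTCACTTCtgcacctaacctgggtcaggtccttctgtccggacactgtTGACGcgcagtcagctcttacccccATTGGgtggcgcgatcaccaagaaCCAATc
B2m: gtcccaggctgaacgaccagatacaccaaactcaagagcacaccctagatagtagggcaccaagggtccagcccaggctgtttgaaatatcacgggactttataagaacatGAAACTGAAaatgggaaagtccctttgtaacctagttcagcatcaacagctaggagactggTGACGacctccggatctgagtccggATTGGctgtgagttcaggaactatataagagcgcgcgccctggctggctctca
H2-Q6: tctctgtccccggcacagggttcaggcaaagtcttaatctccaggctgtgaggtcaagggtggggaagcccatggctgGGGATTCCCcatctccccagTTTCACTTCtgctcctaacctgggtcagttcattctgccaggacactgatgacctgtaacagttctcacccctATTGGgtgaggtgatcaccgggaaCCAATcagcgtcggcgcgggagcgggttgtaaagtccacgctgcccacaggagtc
Tap1: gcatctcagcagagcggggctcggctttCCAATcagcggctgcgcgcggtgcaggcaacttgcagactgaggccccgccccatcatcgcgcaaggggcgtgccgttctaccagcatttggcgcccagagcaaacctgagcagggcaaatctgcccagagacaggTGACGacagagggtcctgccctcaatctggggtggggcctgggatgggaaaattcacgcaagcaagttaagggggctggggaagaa

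The letters GGGATTCCC occurred in 99 of 32851 RefSeq promoter windows of this length (0.301%), and 5 of these 99 belong to class I heavy chains, namely both windows of H2-K1 and those of H2-D1, H2-Q6 and H2-Q7. The H2-Q2 window holds a single CCAAT match and no match of the other 5 letter runs. CCAAT was found in 12 of 14 windows of class I heavy chains and in 25 of 34 windows of all members (73.5%), beside 33.8% of all promoters. TGACG was found in 15 of the 34 (44.1%), beside 17.8%. The windows of H2-K1 overlap each other, as do those of Psme2 and those of Tap1 and Psmb9. The counts of windows given here therefore include some sites more than 1 time. GAAANNGAA was in 4 of the 34 windows, those of B2m, H2-T22, H2-T23 and Erap1 (11.8%, beside 7.13% of all). GAANNGAAA was in 9 (26.5%, beside 6.31%), all of class I heavy chains. This form was added after the windows were seen, so the difference between these shares is no independent result. Of the 14 heavy chain windows, 11 held either form, and those of H2-Q2, H2-T3 and H2-T-ps held neither. The GAS letters were in 2, those of H2-M3 and Psmb8 (5.88%, beside 7.02%). The windows of H2-D1 and H2-Q6 were 82.0% identical, and the log2 ratios of these genes were 1.15 and -0.31. The H2-Q6 window lacks the TGACG match of H2-D1. The window of H2-Q7, at -0.88, holds TGACG, and those of H2-Q10 and H2-T23, at 0.56 and 1.71, lack it. Whether any match bears on these ratios was not tested. H2-D1 and H2-Q2, both with higher counts in the DSS library, had windows that were 54.8% identical. Identity was taken over whole windows, and GGGATTCCC lies at -124 in the H2-K1 window but at -170 in that of H2-D1. By this measure H2-D1 was 47.6% identical to H2-K1 and also to B2m. A match describes letters in these windows and is not evidence that a factor binds there.

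Both classical class I heavy chains counted were higher in the DSS library. H2-K1 (gene ID 14972) had 24693 control and 29888 DSS counts, 345 and 547 CPM. H2-D1 (14964) had 7576 and 12866 counts, 106 and 235 CPM. The log2 ratio was 0.66 (0.64 to 0.69) for H2-K1 and 1.15 (1.11 to 1.19) for H2-D1, so that H2-D1 was past the line of 1 and H2-K1 was not. H2-K1 made up 76.5% (76.1 to 77.0%) of the counts of this pair in the control and 69.9% (69.5 to 70.3%) in the DSS library, a share that does not depend on the scaling between libraries. The light chain B2m (12010), with which the heavy chains pair, had 15986 and 30724 counts, 223 and 562 CPM. Its log2 ratio was 1.33 (1.30 to 1.36), a 2.52-fold difference.

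H2-Q2 (15013), a nonclassical heavy chain of the Q region, had 2250 control and 19786 DSS counts. This was 31.4 and 362 CPM, an 11.5-fold difference with a log2 ratio of 3.53 (3.46 to 3.59). It ranked 323 of 17235 genes by ratio, the highest rank of the members. Only 8.74% of the 50-base windows of its transcript occur in the transcripts of another gene, so most of its sequence is not shared with other class I genes. Its neighbour H2-Q1 (15006) had 666 and 2230 counts and a log2 ratio of 2.13 (2.01 to 2.26), with 22.9% of its windows shared. H2-Q4, with 1831 and 2490 counts, was at 0.83, and H2-Q10, which encodes a secreted heavy chain known from liver, had 8222 and 9270 counts and was at 0.56. H2-Q5 had 88 and 98 counts and was at 0.54 (0.11 to 0.98). Of the windows of H2-Q4, 39.2% are shared.

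H2-Q6 and H2-Q7 encode the Qa-2 antigen, and both had lower counts in the DSS library. H2-Q6 (110557) had 1052 and 649 counts, a log2 ratio of -0.31 (-0.45 to -0.17). H2-Q7 (15018) had 860 and 356 counts, a log2 ratio of -0.88 (-1.07 to -0.70). Other genes share 35.0% of the windows of H2-Q6, with H2-Q7 sharing 13.9%, and 34.9% of those of H2-Q7, with H2-Q6 sharing 19.3%. How reads with several matches were assigned is not stated. The Q region held the highest ratio of the class I genes together with 2 values below 0 among its 7 genes.

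In the T region, H2-T23 (15040), which encodes Qa-1, the ligand that shows leader peptides of other class I chains to NKG2A receptors, had 2448 and 6116 counts, 34.2 and 112 CPM. Its log2 ratio was 1.71 (1.64 to 1.78), with 29.8% of its windows shared. H2-T3 (15043), the thymus leukemia antigen of intestinal epithelium and a ligand of CD8αα on intraepithelial lymphocytes, had 1681 and 2788 counts and a log2 ratio of 1.12 (1.03 to 1.21), and 1.28% of its windows are shared. H2-Bl (14963), named for the blastocyst, had 178 and 624 counts and a log2 ratio of 2.20 (1.96 to 2.45). H2-T22 and H2-T10 are ligands of γδ T cell receptors and share 44.7% and 42.9% of their windows, largely with each other. H2-T22 had 1858 and 1799 counts and was at 0.34, and H2-T10 had 241 and 166 counts and was at -0.15 with an interval that included 0. H2-T24 had 3 and 5 counts, with an interval from -1.24 to 3.81, and the pseudogene H2-T-ps, with 366 and 316 counts, was at 0.18 with an interval that included 0.

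Of the remaining nonclassical genes, H2-M3, which presents formylated peptides of bacteria, had 461 and 276 counts and a log2 ratio of -0.35 (-0.57 to -0.13). H2-M2 had 10 and 23 counts, with an interval from 0.46 to 2.83. Cd1d1, which presents lipids to natural killer T cells, had 70 and 28 counts and was at -0.93 (-1.62 to -0.28). H2-K2 had 355 and 367 counts and was at 0.44 (0.22 to 0.65). Over the 17 nonclassical genes with at least 10 counts, 6 reached 1 (35.3%, beside 19.3% of all genes) and 0 lay at -1 or below (beside 20.2%), with a median of 0.54. A further 21 nonclassical names were not analysed here, and their direction is not known.

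Summed over the 20 class I heavy chain genes, Cd1d1 and pseudogenes included, there were 54909 control and 90141 DSS counts, 767 and 1649 CPM. The log2 ratio of this sum, which does not depend on how reads were divided among its genes, was 1.10 (1.09 to 1.12). H2-Q2 alone made up 4.10% (3.93 to 4.27%) of the heavy chain counts in the control and 21.95% (21.7 to 22.2%) in the DSS library. H2-K1 made up 45.0% and 33.2%, H2-D1 13.8% and 14.3%, and H2-Q10 14.97% and 10.28%. Without H2-Q2, the log2 ratio of the sum was 0.81, below the line of 1. Over the 8 heavy chains with under 10% of their windows shared it was 1.13.

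**Figure D2:**
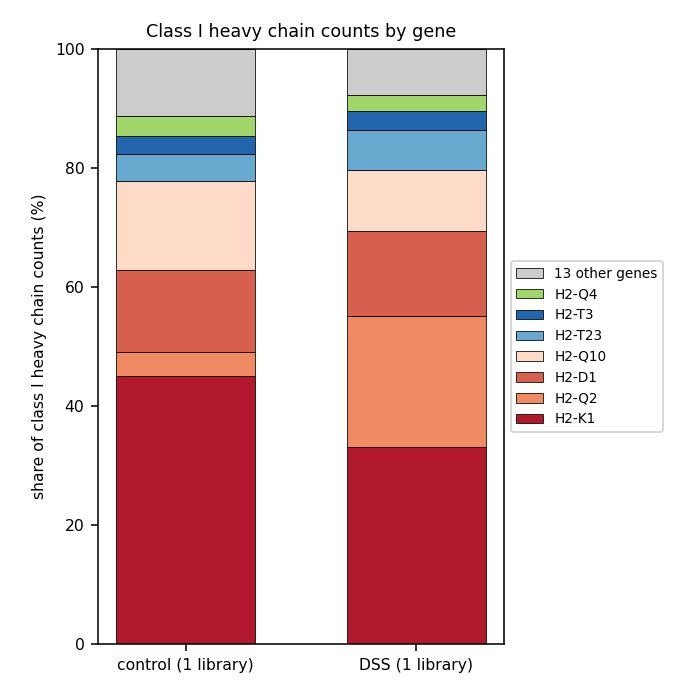
Share of the class I heavy chain counts (%, stacked to 100) taken by each gene in the control library and the DSS library. The H2-Q2 layer goes from 4.10% to 21.95% and the H2-K1 layer from 45.0% to 33.2%.

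Levels of different genes can be compared per length of transcript. In CPM per kilobase, B2m was highest of the 44 genes in the DSS library at 653, and was at 260 in the control. H2-K1 followed in the DSS library at 338 (control 213), then H2-Q2 at 287 (control 24.9) and Calr at 174 (control 220). In the control, H2-Q2 was the fourth heavy chain by this level, behind H2-K1, H2-Q10 at 57.7 and H2-D1 at 50.4, and close to H2-T23 at 23.2. In the DSS library it was the second. There H2-D1 was at 112, H2-Q10 at 85.2 and H2-T23 at 75.99.

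**Figure D3:**
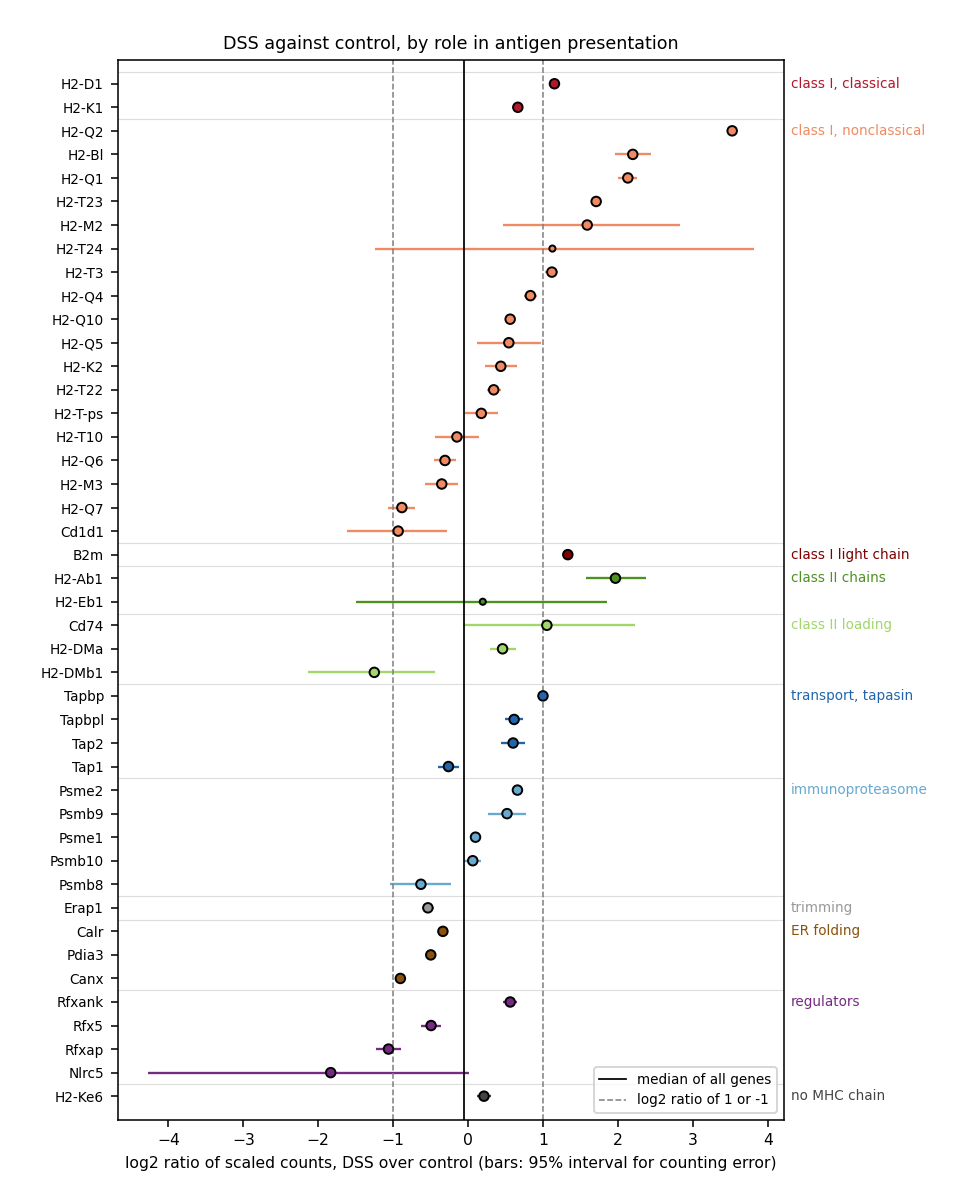
Log2 ratio of scaled counts, DSS over control, for each of the 44 genes with its 95% interval for counting error, by role; small points mark genes with under 10 counts in both libraries, the solid line is the median of all genes (-0.06) and dashed lines mark 1 and -1. The class I chains reach up to 3.53, while the 3 ER folding genes lie between -0.90 and -0.34.

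The machinery that supplies and loads class I peptides had smaller ratios than several heavy chains. Over the 9 genes of the immunoproteasome and of peptide transport, the median log2 ratio was 0.52, or 0.26 with total counts, where the median of all genes is -0.31. Of these 9, 7 were above 0 (77.8%, beside 48.0% of all genes), 0 reached 1 (beside 19.3%) and 0 lay at -1 or below (beside 20.2%). Tapbp, which encodes tapasin and bridges the transporter and the heavy chain, had 3654 and 5581 counts and was at 0.9996 (0.94 to 1.06), just under the line. Tapbpl, a peptide editor related to tapasin, was at 0.61 with 1115 and 1304 counts. Tap2 had 619 and 717 counts and was at 0.60 (0.44 to 0.76). Its partner Tap1 had 1105 and 704 counts and was at -0.26 (-0.40 to -0.12). Tap1 was lower and Tap2 higher in the DSS library, and Tap1 made up 64.1% (61.8 to 66.4%) of the counts of this pair in the control and 49.5% (46.9 to 52.2%) in the DSS library.

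Psmb9 lies head to head with Tap1, and their 300-base RefSeq promoter windows overlap by 275 bases, so the Tap1 sequence above serves for both. Psmb9 had 242 and 265 counts and was at 0.52 (0.26 to 0.78), an interval that does not meet that of Tap1. Of its windows, 12.5% are shared with Tap1. Psmb8, Psmb9 and Psmb10 are the inducible catalytic subunits that replace Psmb5, Psmb6 and Psmb7 in the immunoproteasome. Psmb8 had 158 and 78 counts and was at -0.63 (-1.04 to -0.23), and Psmb10, with 1403 and 1119 counts, was at 0.06 with an interval that included 0.

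Within each library, the inducible subunits were a minor part of each pair. Psmb8 made up 3.62% (3.08 to 4.22%) of Psmb8 and Psmb5 counts in the control and 2.42% (1.92 to 3.01%) in the DSS library. Psmb9 made up 3.16% (2.78 to 3.57%) of its pair with Psmb6 in the control and 4.96% (4.39 to 5.57%) in the DSS library. Psmb10 made up 17.2% (16.3 to 17.99%) and 21.9% (20.7 to 23.03%) of its pair with Psmb7. Psmb8 was below 0, Psmb9 above it and Psmb10 near it. Of the proteasome activators, Psme2 (3846 and 4638 counts) was at 0.66, with 59.3% of its windows shared mostly with Psme2b, and Psme1 (4950 and 4050 counts) was at 0.10. Psme1 and Psmb10 turned negative with total counts.

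The 3 folding helpers of the ER and the ER peptidase Erap1 were lower in the DSS library, unlike Tapbp, Tapbpl and Tap2. Calr and Canx are lectin chaperones of newly made glycoproteins, and Pdia3 is the disulfide isomerase of the loading complex. Canx had 36332 and 14832 counts, 508 and 271 CPM, and was at -0.90 (-0.93 to -0.88). Pdia3 had 30718 and 16614 counts and was at -0.50, and Calr had 34322 and 20769 counts and was at -0.34. These proteins serve most secreted and membrane glycoproteins and not only class I. Erap1, the aminopeptidase that trims peptides in the ER, had 4056 and 2136 counts and was at -0.54 (-0.61 to -0.46).

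Of the regulators, Nlrc5, the class I transactivator, had 14 control and 3 DSS counts, with an interval from -4.27 to 0.01 around -1.83. At this depth no direction of Nlrc5 was detectable. The RFX proteins bind the promoters of class I and class II genes as a complex. Rfxap had 1181 and 432 counts and was at -1.06 (-1.22 to -0.90), Rfx5 had 1296 and 703 and was at -0.49 (-0.63 to -0.36), and Rfxank had 1821 and 2054 and was at 0.56 (0.47 to 0.65), with 34.9% of its windows shared. Rfx5 and Rfxap were lower in the DSS library, and Rfxank and the summed class I heavy chains were higher. H2-Ke6, a dehydrogenase named for its place in the H2 region that encodes no MHC chain, was at 0.21, and its sign changed with total counts.

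The class II chains had low levels, and H2-Eb1 was close to the limit of detection. H2-Ab1, the beta chain of the I-A molecule, had 73 control and 218 DSS counts, 1.02 and 3.99 CPM, with a log2 ratio of 1.97 (1.58 to 2.37). H2-Eb1 had 8 and 7 counts. The alpha chain H2-Aa, without which the I-A molecule is not formed, was not analysed here. Cd74, the invariant chain that is abundant in antigen-presenting cells, had 12 and 19 counts, and its interval included 0. H2-DMa had 530 and 557 counts and was at 0.46 (0.29 to 0.63), and its partner H2-DMb1 had 53 and 17 counts and was at -1.25 (-2.13 to -0.44), with 27.2% of its windows shared with H2-DMb2. The summed chains H2-Ab1 and H2-Eb1 had 81 and 225 counts, a log2 ratio of 1.86 (1.49 to 2.25).

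Immune cells carry class II transcripts, and their markers were read beside these genes. Of 29 such markers, 8 were analysed, with a summed level of 15.2 CPM (control) and 28.0 CPM (DSS). Itgam, with 375 and 631 counts, and Cd68, with 491 and 621, made up most of it. Ptprc, Cd3e and Adgre1 were among the 21 not analysed here. Every gene of the table has at least 1 count in each library, so a marker with counts in a single library would be missing as well. The counts of Cd74 are given above. The summed level of 6 mesenchymal and endothelial markers was 11.2 and 13.1 CPM. Lyve1 (688 and 546 counts) made up most of it, at 0.06 with an interval that included 0. The 5 markers with at least 10 counts were all above 0, beside 48.0% of all genes. Of them, 2 were at 1 or more (40.0%, beside 19.3%), with Pecam1 (12 and 55 counts) at 2.58 (1.67 to 3.62). The part of immune cells in the value of H2-Ab1 was not tested.

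Most MHC genes of the mouse lie together on chromosome 17, so the members were set beside their neighbours there. Between Tapbp and H2-M2, 27 members and 122 other genes had at least 10 counts. Of the 27 members, 8 reached 1 and 1 lay at -1 or below, with a median of 0.54. Of the 122 others, 34 reached 1 and 18 lay at -1 or below, with a median of 0.32 and a range from -3.61 to 5.84. Of all genes with that many counts, 19.3% reached 1 and 20.2% lay at -1 or below. The 122 others include 3 class I genes outside the rule, described below, and all 3 reached 1. High ratios in this stretch were shared by genes with other roles, and the lowest ratios belonged to other genes. Within it, H2-Q1 and H2-Q2, which are neighbours but for 1 gene, were both above 2, and H2-Q6 and H2-Q7 a few genes further on were both below 0. Psmb9, Tap1, Psmb8 and Tap2 follow each other in this order, at 0.52, -0.26, -0.63 and 0.60.

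**Figure D4:**
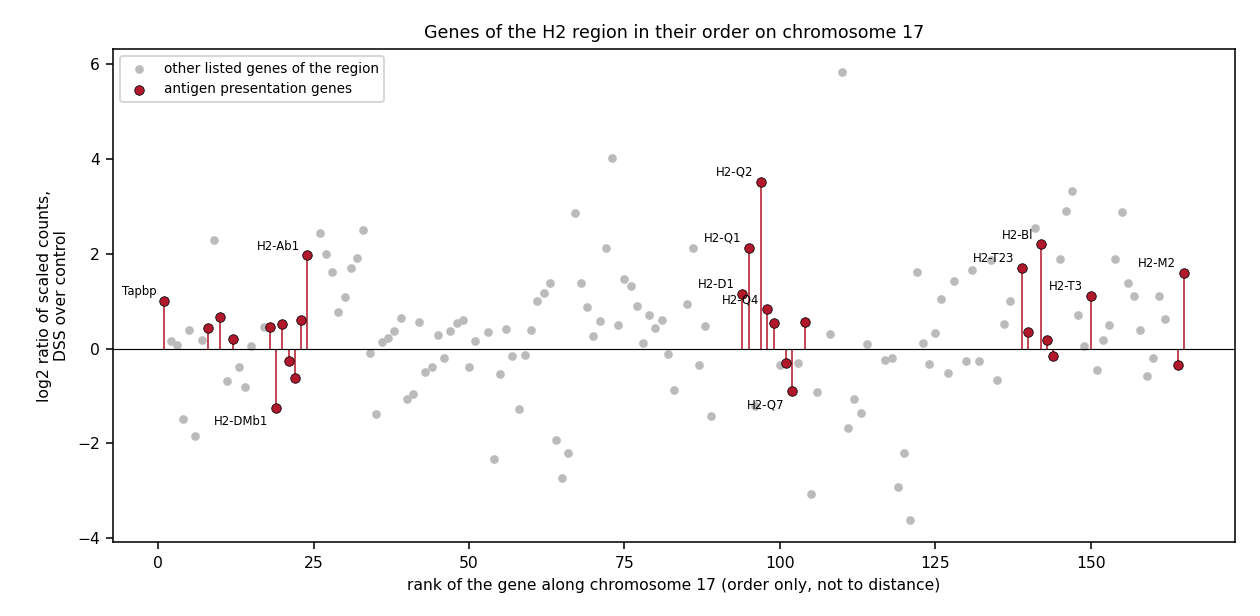
Log2 ratio of scaled counts, DSS over control, of the genes from Tapbp to H2-M2 with at least 10 counts, placed by their rank along chromosome 17 and not by distance. The 27 antigen presentation genes (red, with lines to 0) range from -1.25 to 3.53 and the 122 other genes (grey) from -3.61 to 5.84.

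The T region also held 3 class I genes whose names fall outside the rule, and they were chosen after their values were seen. Gm8909 had 723 control and 5503 DSS counts, with a log2 ratio of 3.32 (3.20 to 3.43) and 29.4% of its windows shared. Gm11127 had 206 and 916 counts and was at 2.54 (2.32 to 2.77), and Gm7030 had 141 and 399 and was at 1.89 (1.61 to 2.18). Of their windows, 78.3% and 75.6% are shared with other genes, so that the division of reads among them is uncertain. All 3 were higher in the DSS library, while the members that lie among them were at 2.20 (H2-Bl), 0.18 (H2-T-ps) and -0.15 (H2-T10). H2-T22, which lies next to Gm11127 on its other side, was at 0.34. Gm10499, which lies between Gm7030 and Gm8909 and was left out of the sum because its class was not established here, had 203 and 1161 counts and was at 2.90 (2.69 to 3.13). With them in the class I sum, its log2 ratio was 1.18 in place of 1.10.

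Further genes of the pathway were read from 6 lists of 70 names, of which 59 were among the counted genes and all 59 had at least 10 counts. Of these, 33 were above 0 (55.9%, beside 48.0% of all genes), 11 were at 1 or more (18.6%, beside 19.3%) and 7 at -1 or less (11.9%, beside 20.2%). The median was 0.11.

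Factors that act on MHC promoters and the interferon signalling that reaches them made up the longest list. Of its 20 genes, 14 were above 0 (beside 48.0% of all genes) and 0 at -1 or less (beside 20.2%), with a median of 0.42. A ratio of 1 or more was found for 4 of the 20, a share close to the 19.3% of all genes. Irf1, a transcription factor induced by interferon that binds the ISRE of class I genes, had 446 control and 1200 DSS counts, with a log2 ratio of 1.82 (1.66 to 1.98). Ifnlr1, a chain of the receptor for type III interferon, had 1133 and 2103 counts and was at 1.28 (1.18 to 1.39). Jak2, a kinase of the IFN-γ receptor, had 5304 and 9726 counts and was at 1.26 (1.21 to 1.31). Ifngr1, the ligand-binding chain of that receptor, was added to these after its values were seen. It had 16513 and 29172 counts and was at 1.21. Irf1 was higher in the DSS library. Among the 9 members of the immunoproteasome and of peptide transport, 7 were above 0 (beside 48.0% of all genes). The other 2, Psmb8 and Tap1, were lower. The part of interferon signalling in these values was not tested.

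The constitutive proteasome differed little. Its 6 genes had a median of -0.02, with 0 at 1 or more (beside 19.3% of all genes) and 0 at -1 or less (beside 20.2%). Psmb7, whose place Psmb10 takes, had 6775 and 3997 counts and was at -0.37, Psmb6, whose place Psmb9 takes, was at -0.16 with 7426 and 5082 counts, and the assembly factor Pomp was at 0.41. Of 8 peptidases that make or destroy class I peptides, 6 were below 0 (beside 52.0% of all genes), with a median of -0.21. Blmh, a cytosolic peptidase, had 3801 and 1284 counts and was at -1.18 (-1.27 to -1.09), Thop1, known for degrading such peptides, had 3693 and 1540 and was at -0.87, and Lnpep, an aminopeptidase of endosomes used in cross-presentation, had 2782 and 3325 and was at 0.65.

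Of 8 MHC-like molecules outside the H2 names, 3 were at 1 or more (37.5%, beside 19.3% of all genes) and 3 at -1 or less (37.5%, beside 20.2%), with a median of -0.38. Azgp1, a secreted protein with a class I fold, had 41 and 514 counts and was at 4.04 (3.58 to 4.53). Ulbp1 and Raet1e, ligands of the NKG2D receptor of natural killer cells, had 241 and 41 counts and 1363 and 296 counts, and were at -2.17 and -1.81. Both named NKG2D ligands were lower in the DSS library, while H2-T23, a ligand of the NKG2A receptor, was higher.

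On the endosomal route of class II, 6 of 8 genes were above 0 (beside 48.0% of all genes), with a median of 0.34. Of the 8, 1 was at 1 or more (12.5%, beside 19.3%) and 0 at -1 or less (beside 20.2%). March8, a ubiquitin ligase that removes class II and other proteins from the surface, had 4062 and 6565 counts and was at 1.08, Ctss, the protease that cuts the invariant chain, was at 0.91 with 885 and 1270 counts, and Ctsd was at 0.81. Of 9 costimulatory or inhibitory ligands of T cells, 3 reached 1 (33.3%, beside 19.3% of all genes) and 3 lay at -1 or below (33.3%, beside 20.2%). Pdcd1lg2 had 12 and 52 counts and was at 2.50 (1.58 to 3.55), Cd276 had 897 and 191 and was at -1.84 (-2.08 to -1.62), and Icosl, the ligand of the T cell receptor Icos, had 1590 and 3170 and was at 1.38 (1.30 to 1.47).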

How the data were processed

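Poly(A) libraries from a stranded kit were sequenced from 1 control and 1 DSS culture of mIOs. The values the authors deposited are raw counts, and the files of single samples, although named FPKM, repeat the same counts. HISAT2 and StringTie are named in the submitters' processing notes, without version. The genome build, the annotation and the treatment of reads with several matches are not given in the sources used here. The lowest count in the table is 1, and genes without counts in a library were not analysed here.

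Scaling used the TMM factors of edgeR 4.0.16 under R 4.3.3. Ratios had no prior count, a gene needed 10 counts in either library, and exact intervals came from scipy 1.17.1. Intervals cover counting error only. With 1 library per group, no test was made. The calculation was tested on simulated counts.

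Any member could be named. From each other list, the rule named the 3 genes furthest from a log2 ratio of 0 that had 50 counts or more in either library, and genes outside this rule are described as such or serve as a marker check. The members and lists were chosen with earlier results of these data known. Transcript lengths and shared 50-base windows came from GENCODE vM21 transcripts, with the longest coding transcript for each gene, and promoters and gene order from RefSeq, matched by gene ID for 19243 of 19294 genes. Alternatives were size factors of DESeq2 1.42.0, upper quartile factors or total counts for TMM, 2 counts added to each gene, a thinned deeper library, other count minimums, a stricter line, list means and the sum of the classical chains. Centring on the median of all genes and 3 further class I sums were added after the data were seen.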

Additional observations from a re-analysis of the deposited data

How the results depend on the processing

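No paired analysis was possible because each group has 1 library. Over 56 recomputed summary values, 46 moved by less than their margin, 10 moved by more and 0 changed sign. Some of these values are counts of members, which cannot change sign. The margin was a fixed fold for counts and the counting interval for sums. For medians it was averaged from the counting intervals of the genes, which low counts widen. Of the members, 13 were past the line of 1 or -1, and 3 past 2 or -2. The class I sum, 1.10 as reported, was 0.85 with total counts and 1.19 with upper quartile factors. It was 0.79 for the classical chains alone. With sums or centring chosen after the data were seen, it was 1.16 centred on the median of all genes, 0.81 without H2-Q2, 1.18 with 3 further class I genes and 1.13 for chains with under 10% of their windows shared. The immunoproteasome and transport median, 0.52, was 0.26 with total counts and 0.30 as a mean. The class II sum ranged from 1.61 to 1.95 and the median of all members from 0.19 to 0.54. The nonclassical median ranged from 0.29 to 0.63, and the mean in its place was 0.74. With total counts, H2-Ke6, Psmb10, Psme1 and H2-T-ps fell below 0, H2-D1, H2-T3 and Cd74 were no longer at 1, and Canx, Cd1d1 and H2-Q7 were at -1 or less. These shifts follow from the scaling, which moves all genes alike. Tapbp reached 1 with DESeq2 size factors, upper quartile factors, thinning or centring, Rfxap was above -1 with upper quartile factors, and Cd74 was below 1 with a prior count of 2. Counting depth limits Nlrc5, H2-T24, H2-Eb1, Cd74 and H2-M2, and variation between cultures is not measured.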
